A study of Homo sapiens with 12 samples.

Results

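The genes described here encode the proteasome, the barrel-shaped protease that degrades ubiquitin-tagged proteins. Members were the rows whose gene name is PSM, a letter from A to G and a number, without pseudogenes, in both deposited expression tables. The rule found 48 genes, of 60671 in one table, 60666 in the other and 60630 identifiers shared by both. It used names only and no measured value. RNA was sequenced from SZ95 sebocytes, an immortalised human cell line from the sebaceous gland, in 4 groups of 3 libraries that the series' design text calls biological replicates. The groups are LA, LA+RVT, PGN and PGN+RVT. RVT is resveratrol, a plant polyphenol, by the series title. The labels leave LA and PGN as abbreviations, taken here to mean linoleic acid, a fatty acid that drives lipid storage, and peptidoglycan, a bacterial wall component that triggers inflammation. All cells therefore carried a stimulus, and no untreated group is among the labels. The sources used here give neither doses nor times. A cell line models sebocytes without the other cell types of the gland.

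A proteasome is built in layers. The 20S core holds rings of alpha subunits around rings of beta subunits, and PSMB5, PSMB6 and PSMB7 carry the cutting sites. The 19S regulatory particle caps the core, recognises ubiquitin chains, removes them and feeds the unfolded protein in with a ring of ATPases. Interferon signalling is known to induce PSMB8, PSMB9 and PSMB10, which take the places of PSMB5, PSMB6 and PSMB7 to form the immunoproteasome, and PSME1 and PSME2, which form the PA28 activator. That form is known for making peptides for MHC class I presentation. In many cells a fall in proteasome activity leads the factor NRF1 (gene NFE2L1) to raise core and 19S genes together.

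By role, the 48 members are 8 alpha subunits, 7 constitutive beta subunits, 3 immunoproteasome subunits, 1 thymoproteasome subunit (PSMB11), 6 ATPases and 11 other subunits of the 19S particle, 7 assembly chaperones, and 5 activators and inhibitors. All but PSMB11 were tested. PSMB11, which is known from the thymus cortex, was listed at 0 in 11 of 12 libraries and at 0.04 TPM in the remaining one. TPM is transcript abundance scaled by gene length and by library, which allows levels of different genes to be compared. It holds no read depth and no absolute amount: fewer cells, less RNA per cell and a smaller share of the RNA cannot be told apart. The deposited columns summed to between 994373 and 997060 TPM, and 14489 to 15452 genes reached 1 TPM per library. Of 12 sebaceous markers, 9 reached a mean of 1 TPM in the LA groups and 8 in the PGN groups, while MC5R and AWAT2 were listed at 0. Of 13 immune cell markers, CD14, CD68 and CD74 reached 1 TPM. The general leukocyte marker PTPRC stayed under it, and the immune markers summed to between 38.4 and 66.9 TPM per library.

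Proteasome transcripts were abundant in all 4 groups. Together they made up 0.825% ± 0.011 of TPM in LA and 0.875% ± 0.0095 in LA+RVT, and 0.946% ± 0.0053 in PGN and 1.05% ± 0.0065 in PGN+RVT (SD, n = 3 each). PSMA7, an alpha subunit, had the highest level in every group, from 788 ± 17 TPM in LA to 1220 ± 53 TPM in PGN+RVT. PSMB4, a structural beta subunit, led the beta ring at 496 to 629 TPM. PSMD2, the large scaffold of the 19S base, led that particle at 319 to 558 TPM. Immunoproteasome subunits were lower, at 58.9 to 129 TPM. Among tested genes the lowest group mean was that of PSMA8, the testis form of the alpha subunit that PSMA7 supplies elsewhere, at 22.2 TPM in PGN+RVT. Its sequence resembles that of PSMA7, so the counting may have divided shared reads between them. The tables may rest on different gene models, so LA and PGN levels stand side by side here and were not tested against each other.

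**Figure D1:**
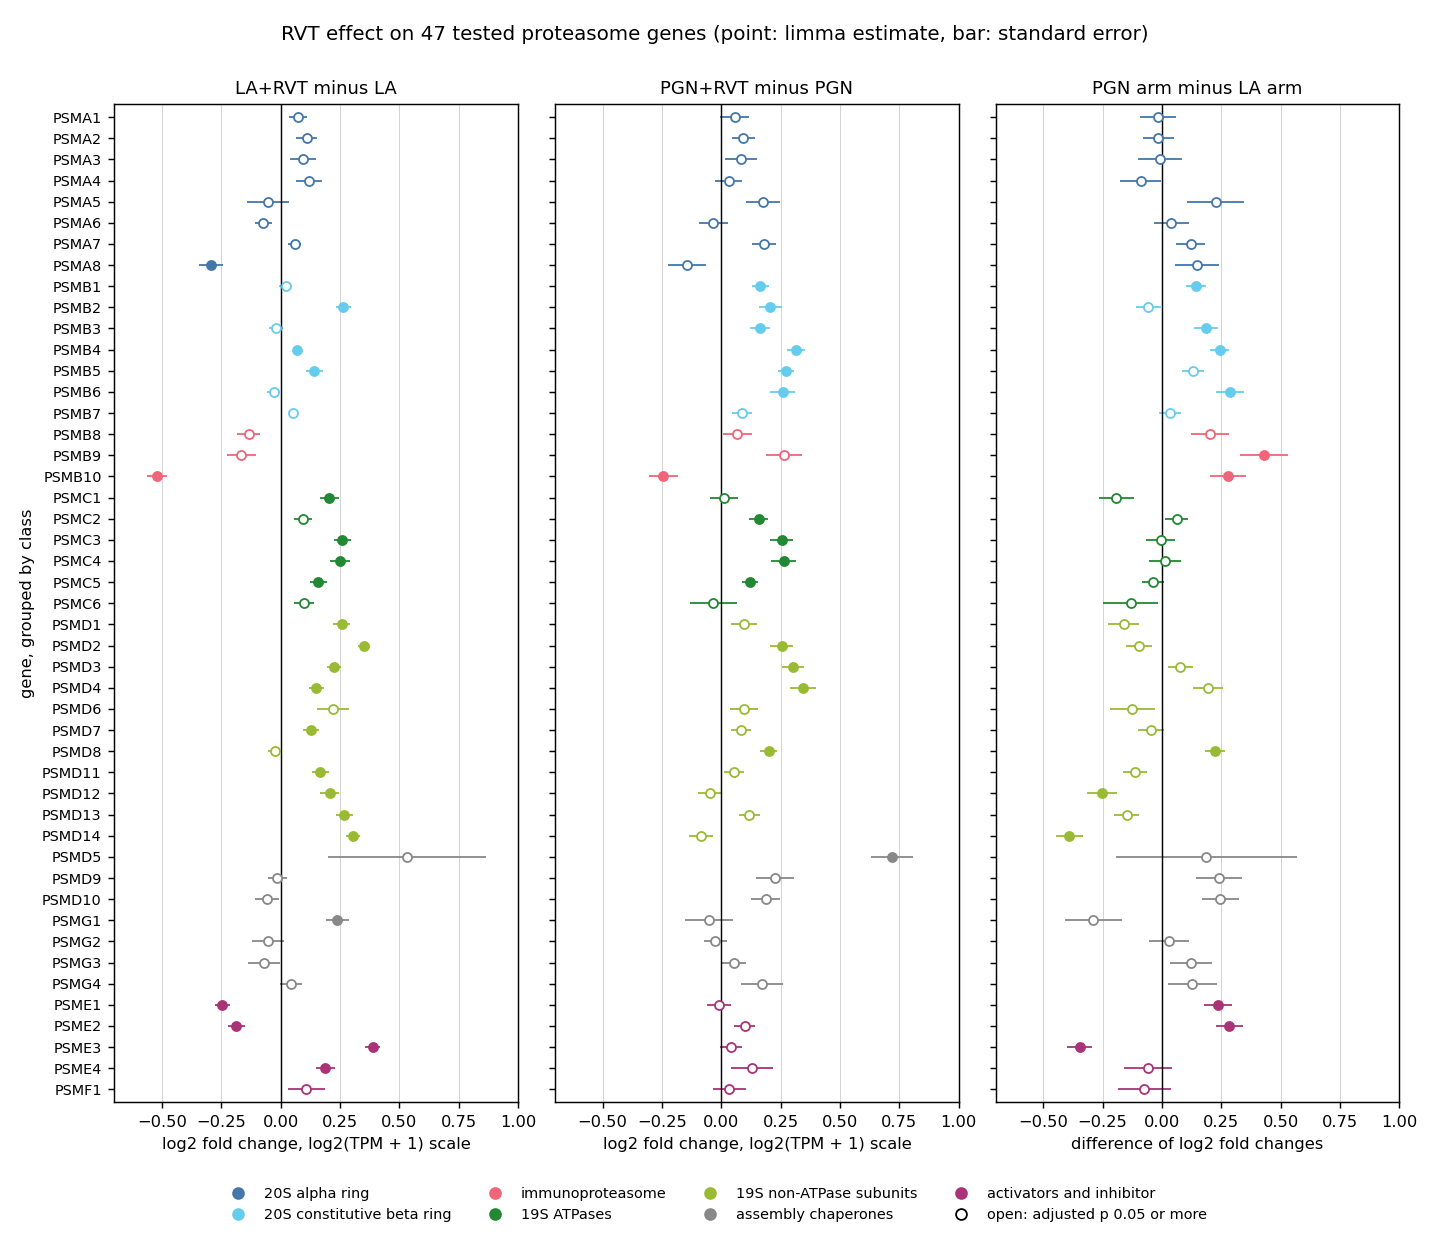
Effect of RVT on the 47 tested proteasome genes under LA (left), under PGN (middle) and the difference of the effects (right), as log2 fold changes on the log2(TPM + 1) scale. Points are limma estimates from 3 libraries per group, bars standard errors, colours classes, and filled points have an adjusted p under 0.05. In the left panel 19S genes lie mostly to the right of 0 and PSMB10, PSME1 and PSME2 to the left.

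With RVT, members moved by small amounts and not all one way. Under LA, 19 of 47 tested members rose and 4 fell, and under PGN 15 rose and 1 fell (limma on log2(TPM + 1), adjusted p under 0.05 over all genes). Over all tested genes, 10.7% rose and 5.07% fell under LA, and 10.6% rose and 4.92% fell under PGN. Highly expressed genes are called more often: among those averaging 20 TPM or more, a description added after the values were seen, 18.4% rose and 7.64% fell under LA and 16.0% rose and 7.24% fell under PGN. The members' shares were 40.4% and 8.51% under LA and 31.9% and 2.13% under PGN. Their median log2 fold change was 0.098 in each arm, against 0.036 and 0.064 for all genes tested. Groups did not overlap in 24 members higher and 7 lower under LA (23.4% and 12.8% of all genes), and in 24 higher and 1 lower under PGN (24.7% and 11.4%).

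The counts of higher members depend on the scale and fell when any 1 library was left out. Summed sebaceous markers also moved with RVT, from between 4724 and 4847 TPM to between 5454 and 5493 TPM under LA and from between 6461 and 6599 TPM to between 6756 and 6888 TPM under PGN, and their part in the counts was not tested. The markers did not move as one: under LA the keratins KRT7, KRT18 and KRT19 rose and MUC1 fell (log2 fold change -0.54), and under PGN KRT19, FASN and FADS2 rose and PPARG fell (-0.72). TPM are shares, and 2 large classes lost share with RVT: ribosomal protein genes went from between 14.5% and 15.1% to between 13.1% and 13.4% of TPM under LA and from between 16.1% and 16.4% to between 15.2% and 15.8% under PGN, and mitochondrial genes from between 13.8% and 14.3% to between 12.9% and 13.2% and from between 11.2% and 11.6% to between 10.1% and 11.2%. With TPM rescaled without these classes, 12 members rose and 4 fell under LA, and 11 rose and 1 fell under PGN. With library medians made equal, 12 rose and 4 fell under LA, and 5 rose and 1 fell under PGN. The share of called genes that were higher over the whole table then went from 67.8% to 49.1% under LA and from 68.4% to 45.5% under PGN. The count of 19 under LA went to 9 without LA library 1, to 9 without LA library 2 and to 12 without LA+RVT library 1. The count of 15 under PGN went to 7 without PGN library 2, to 6 without PGN+RVT library 1 and to 7 without PGN+RVT library 2 or 3. Calls over all genes fell too without 1 library, from 2426 to between 1428 and 1690 under LA. Under PGN they went from 2277 to between 1095 and 1861. Under LA, 9 of the 19 and 3 of the 4 were called in all 15 alternatives, and under PGN 5 of the 15 were. No called member changed sign in any of them.

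The 19S particle held most of the rises under LA. Of its 17 subunits among the members 13 rose and none fell, with a median log2 fold change of 0.21 and with 16 of 17 in groups that did not overlap. Of all tested genes, 10.7% rose under LA and 10.6% under PGN, and 23.4% had higher groups that did not overlap under LA. Among those averaging 20 TPM or more, 18.4% rose under LA and 16.0% under PGN. Summed 19S transcripts were 2646 ± 28 TPM in LA and 3040 ± 33 TPM in LA+RVT (SD, n = 3). Under PGN 8 of 17 rose, with a median of 0.12, and the sum was 3211 ± 23 TPM and 3579 ± 27 TPM. The LA count was 7 without LA library 1 or 2, 7 with no trend in the prior and 9 with library medians made equal, with TPM rescaled or after correction for GC and length. The PGN count was 2 with library medians made equal, 2 with no trend in the prior, 3 after the GC and length correction, 2 without PGN+RVT library 1 and 3 without PGN library 2 or PGN+RVT library 2, and 4 without PGN+RVT library 3.

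PSMD2 was read at 322, 312 and 322 TPM in LA and at 397, 407 and 416 TPM in LA+RVT. Its values were 444, 467 and 493 TPM in PGN and 581, 548 and 546 TPM in PGN+RVT. All libraries with RVT lay above those of the same stimulus without it. The log2 fold change was 0.35 ± 0.027 under LA (SE, limma adjusted p = 0.000669) and 0.25 ± 0.048 under PGN (limma adjusted p = 0.0148). The PGN call was lost without PGN library 2 or PGN+RVT library 1, with library medians made equal, after correction for GC and length and with no trend in the prior. PSMD1, the other large scaffold of the base, rose under LA, from 96.0, 96.1 and 94.8 TPM to 117, 110 and 117 TPM. Under PGN its groups overlapped, at 114, 104 and 109 TPM and 118, 110 and 122 TPM.

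The lid is the part of the 19S particle that removes ubiquitin chains. PSMD14, its deubiquitinating enzyme, was at 128, 133 and 132 TPM in LA and at 160, 164 and 163 TPM in LA+RVT. Under PGN it went the other way in the mean, from 197, 185 and 177 TPM to 176, 171 and 180 TPM, with overlapping groups and no call. Its log2 fold change was 0.30 ± 0.028 under LA (limma adjusted p = 0.0011) and -0.09 ± 0.051 under PGN. PSMD12, a lid scaffold, was also called under LA alone: 78.7, 77.7 and 82.3 TPM in LA stood below 94.1, 88.8 and 92.8 TPM in LA+RVT, while 88.1, 89.2 and 95.3 TPM in PGN overlapped 85.2, 87.3 and 91.1 TPM in PGN+RVT. Its call under LA was lost with no trend in the prior and without LA library 1 or 2 or LA+RVT library 1 or 3 (highest adjusted p = 0.0575, limma).

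Of the other lid subunits, PSMD3 rose under both stimuli, PSMD7, PSMD11 and PSMD13 were called under LA alone and PSMD8 under PGN alone. PSMD3 was at 148, 147 and 151 TPM in LA and 175, 177 and 169 TPM in LA+RVT, and at 182, 190 and 201 TPM in PGN and 234, 240 and 232 TPM in PGN+RVT. No library with RVT overlapped its group without, and both calls held in all 15 alternatives. PSMD13 rose from 99.6, 103 and 106 TPM to 121, 126 and 126 TPM under LA. Its PGN values, 138, 131 and 128 TPM and then 146, 140 and 145 TPM, did not overlap but were not called (limma adjusted p = 0.117). PSMD8 was called under PGN and not under LA, with 199, 202 and 207 TPM in LA against 196, 203 and 198 TPM in LA+RVT, and 197, 196 and 197 TPM in PGN against 226, 232 and 220 TPM in PGN+RVT. The PSMD8 call under PGN was lost in the same 3 settings as that of PSMD2, and without PGN library 2 or PGN+RVT library 1 or 2. PSMD6, PSMD7 and PSMD11, the remaining lid subunits among the members, had log2 fold changes of 0.22, 0.13 and 0.17 under LA and of 0.09, 0.08 and 0.05 under PGN. PSMD7 and PSMD11 were called under LA (limma adjusted p = 0.0487 and 0.0217), PSMD6 in neither arm. Both calls were lost without LA library 1 or 2 and without LA+RVT library 1 or 2, and that of PSMD7 also without LA library 3. Both were lost too with library medians made equal, with TPM rescaled, after the GC and length correction and with no trend in the prior.

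PSMD4, the receptor that binds ubiquitin chains, was at 272, 274 and 271 TPM in LA and at 313, 291 and 303 TPM in LA+RVT. Under PGN it went from 269, 289 and 302 TPM to 355, 380 and 357 TPM, the largest log2 fold change of the 19S particle there (0.34 ± 0.053, limma adjusted p = 0.00699). The LA call (0.15 ± 0.031, limma adjusted p = 0.0216) was lost without LA library 1, 2 or 3 or LA+RVT library 3, with library medians made equal, with TPM rescaled and with no trend in the prior.

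Of the 6 ATPases, 4 rose under each stimulus, against 10.7% of all tested genes under LA and 10.6% under PGN. PSMC3, PSMC4 and PSMC5 rose under both, PSMC1 under LA and PSMC2 under PGN, and PSMC6 was not called. PSMC3 was at 177, 177 and 174 TPM in LA and 213, 201 and 220 TPM in LA+RVT. In the PGN groups it was at 195, 218 and 205 TPM and at 243, 250 and 244 TPM. PSMC4 was at 67.6, 72.9 and 69.5 TPM and at 80.2, 85.2 and 84.6 TPM under LA, and at 98.3, 93.9 and 105 TPM and at 115, 122 and 119 TPM under PGN. Groups of PSMC3 and PSMC4 did not overlap in either arm, and their LA calls held in all 15 alternatives. Under PGN the PSMC3 call was lost without any 1 of the PGN+RVT libraries, and that of PSMC4 without any of these or PGN library 2. With library medians made equal or no trend in the prior, none of the ATPases was called under PGN. The PSMC2 and PSMC5 calls under PGN were also each lost without any 1 library. Under LA the PSMC1 call was lost without LA library 1 or 2, after the GC and length correction and with no trend in the prior, and that of PSMC5 was kept only without LA+RVT library 2 among these fits. None of the 6 ATPases passed the test of a difference between the arms.

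None of the 8 alpha ring genes rose in either arm by the test, with median log2 fold changes of 0.066 under LA and 0.070 under PGN. PSMA7 had 770, 803 and 791 TPM in LA and 801, 817 and 844 TPM in LA+RVT, and 1010, 1096 and 1126 TPM in PGN and 1217, 1275 and 1169 TPM in PGN+RVT. The PGN groups did not overlap, yet its log2 fold change of 0.18 ± 0.051 missed the threshold (limma adjusted p = 0.0547). PSMA8 fell under LA, from 31.2, 33.9 and 32.5 TPM to 26.8, 26.7 and 25.7 TPM, by 0.29 on the log2 scale (limma adjusted p = 0.0107). The other 6, PSMA1 to PSMA6, had log2 fold changes between -0.07 and 0.12 under LA and between -0.03 and 0.17 under PGN.

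More constitutive beta subunits were called under PGN than under LA, and the difference between the arms passed the test for 4 of the 7. Under PGN 6 of 7 rose (median log2 fold change 0.21) and all 7 had groups that did not overlap, while under LA 3 of 7 rose (median 0.05). Of all tested genes, 10.6% rose under PGN and 10.7% under LA. Among those averaging 20 TPM or more, 16.0% and 18.4% did. Under PGN 24.7% of all genes had higher groups that did not overlap, and 7.73% passed with a positive difference between the arms. Summed, the constitutive beta transcripts went from 2151 ± 14 to 2219 ± 11 TPM under LA and from 2352 ± 62 to 2720 ± 43 TPM under PGN (SD, n = 3). The PGN count was 2, PSMB4 and PSMB5, with library medians made equal or with no trend in the prior, and 3 with no filter on low values. It was 2 without PGN+RVT library 3 and 3 without PGN library 2 or PGN+RVT library 1 or 2. The LA count was 1, PSMB2, under each of these scalings and priors and without any 1 of the 6 libraries.

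PSMB4 was at 492, 500 and 498 TPM in LA and at 525, 518 and 520 TPM in LA+RVT. Under PGN it rose from 489, 508 and 521 TPM to 628, 647 and 611 TPM. The groups were apart in both arms, but by 0.07 ± 0.019 on the log2 scale under LA (limma adjusted p = 0.0499), a call that 14 of 15 alternatives lost, and by 0.31 ± 0.039 under PGN (limma adjusted p = 0.00295). PSMB2, another structural beta subunit, rose from 103, 106 and 103 TPM to 123, 128 and 126 TPM under LA and from 137, 141 and 144 TPM to 168, 155 and 165 TPM under PGN. Its LA call held throughout and its PGN call was lost under both other scalings, with no filter, with no trend in the prior, and without PGN library 1 or 2 or PGN+RVT library 1 or 3. PSMB3 overlapped under LA, at 375, 386 and 391 TPM and 368, 381 and 387 TPM. Under PGN it went from 413, 434 and 449 TPM to 470, 494 and 487 TPM, a call that only the fit without PGN library 3 kept among the 6 that leave out a library, and that was lost under both other scalings. PSMB1 rose under PGN (log2 fold change 0.16 ± 0.035, limma adjusted p = 0.0227), a call lost with library medians made equal, with no trend in the prior and in 5 of the 6 fits that leave out a library, the exception being PGN library 1.

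**Figure D2:**
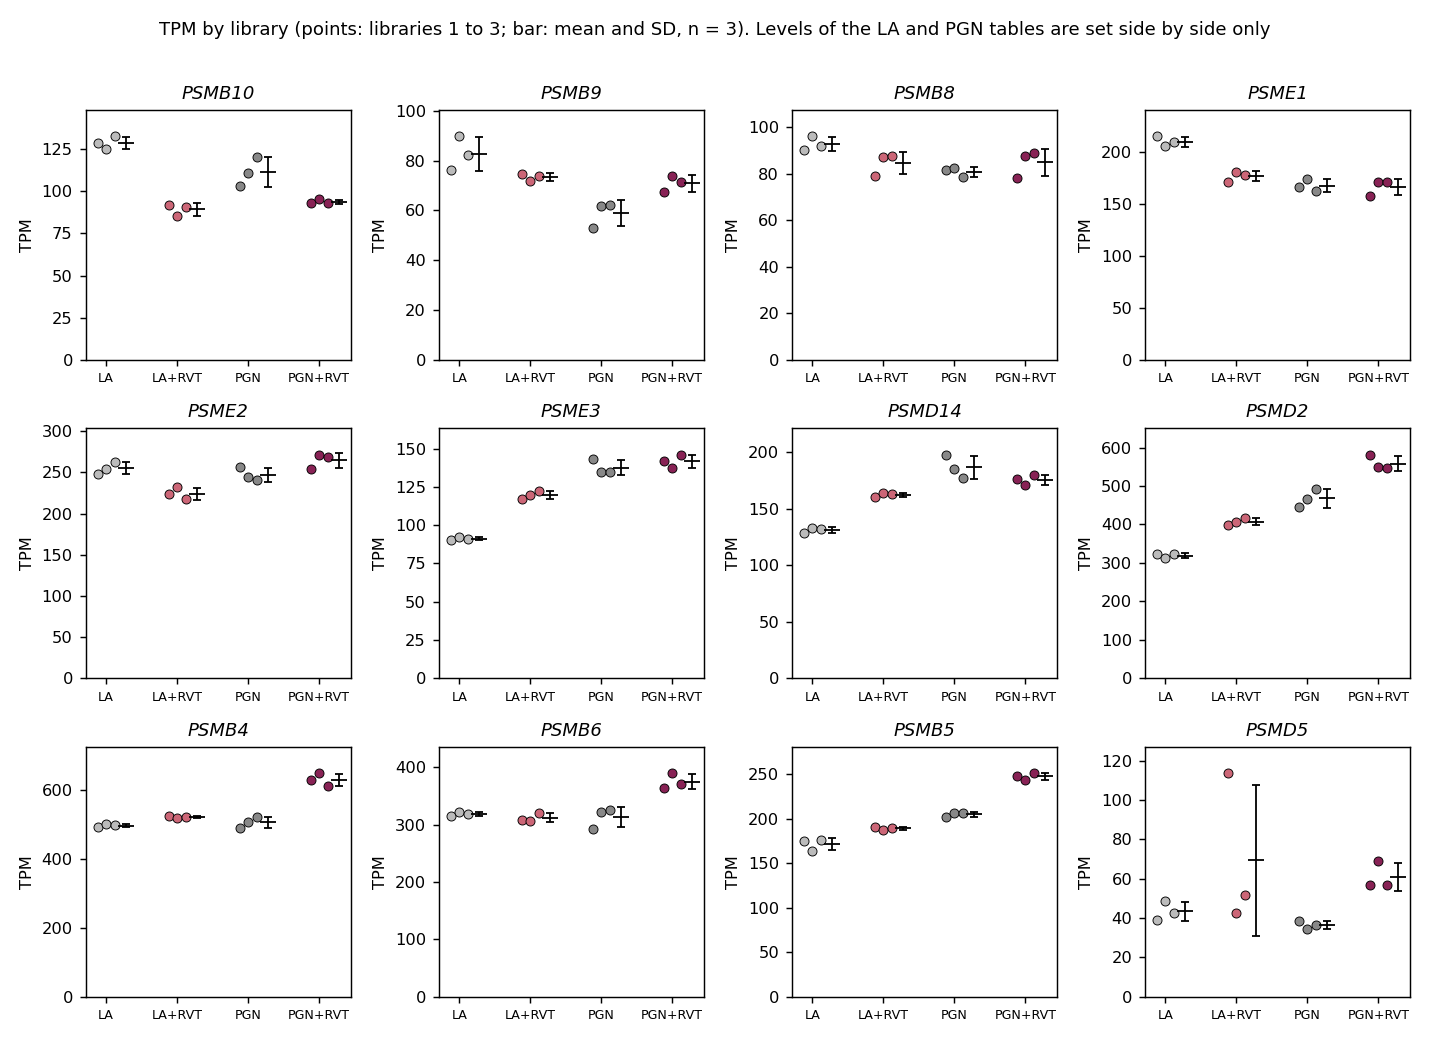
TPM of 12 members in each library, by group, with the mean and SD (n = 3) beside the points and each vertical axis starting at 0. PSMB10, PSME1 and PSME2 are lower in the 3 LA+RVT libraries than in the 3 LA libraries, PSMB4 and PSMB6 are higher in PGN+RVT than in PGN, and 1 LA+RVT library of PSMD5 stands at 114 TPM.

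Of the 3 constitutive catalytic subunits, PSMB5 alone was called under LA. PSMB5, the chymotrypsin-like subunit, was at 175, 164 and 176 TPM in LA and at 191, 188 and 189 TPM in LA+RVT, and at 201, 206 and 206 TPM in PGN and 248, 243 and 251 TPM in PGN+RVT. It rose in both arms (log2 fold change 0.14 ± 0.034, limma adjusted p = 0.0354, and 0.27 ± 0.035, limma adjusted p = 0.00357). The LA call was lost without any 1 library. PSMB6, the caspase-like subunit, was at 315, 322 and 318 TPM in LA and 308, 307 and 321 TPM in LA+RVT, which overlapped. Under PGN it rose from 293, 321 and 326 TPM to 363, 389 and 371 TPM, a call lost without PGN+RVT library 2 or 3, with library medians made equal, with no trend in the prior and with no filter on low values. PSMB7, the trypsin-like subunit, was at 332, 331 and 326 TPM and at 339, 341 and 344 TPM under LA, and at 391, 409 and 415 TPM and at 423, 448 and 418 TPM under PGN. Its groups did not overlap in either arm, but the shifts of 0.05 and 0.09 on the log2 scale passed the test in neither.

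The inducible subunits all had lower means with RVT under LA, and PSMB10 passed the test. PSMB10, at chr16:67934502-67937087 on the minus strand (GENCODE 29, GRCh38), replaces PSMB7 in the immunoproteasome. It was at 129, 125 and 133 TPM in LA and at 92.2, 85.1 and 90.9 TPM in LA+RVT, and at 103, 111 and 121 TPM in PGN and 93.1, 95.3 and 92.8 TPM in PGN+RVT. Every library with RVT was below every library of the same stimulus without it. PSMB10 fell by 0.52 ± 0.042 on the log2 scale under LA (limma adjusted p = 0.000761) and by 0.24 ± 0.062 under PGN (limma adjusted p = 0.0397). The LA call held in all 15 alternatives. The PGN call was lost with no filter on low values, with no trend in the prior and without PGN library 2 or 3 or any 1 of the PGN+RVT libraries, with adjusted p between 0.0175 and 0.121 over the 6 fits that leave out a library (limma).

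PSMB8 (chr6:32840717-32844703, minus strand) and PSMB9 (chr6:32844136-32859585, plus strand) lie side by side in the MHC region and replace PSMB5 and PSMB6. PSMB8 was at 90.4, 96.1 and 92.1 TPM in LA and at 79.1, 87.1 and 87.5 TPM in LA+RVT. PSMB9 was at 76.2, 89.7 and 82.2 TPM in LA and at 74.7, 71.8 and 74.0 TPM in LA+RVT. Neither pair of groups overlapped, and neither shift (-0.14 ± 0.049 and -0.17 ± 0.060) passed the test (limma adjusted p = 0.117 and 0.115). Under PGN, PSMB8 was at 81.5, 82.6 and 78.5 TPM and then at 78.1, 87.7 and 88.9 TPM, with overlap. PSMB9 under PGN was at 52.9, 61.6 and 62.3 TPM and then at 67.3, 73.9 and 71.5 TPM, without overlap and just short of the threshold (0.26 ± 0.075, limma adjusted p = 0.0559). By GENCODE 29 the 2 genes share 139 exonic bases on opposite strands, and PSMB8 shares 618 with the antisense gene PSMB8-AS1, which had 4.32 to 8.41 TPM. The sources used here do not say whether the counting used strand.

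PSME1 (chr14:24136158-24138967) and PSME2 (chr14:24143362-24147570) encode the subunits of PA28. PSME1 was at 215, 205 and 209 TPM in LA and at 171, 181 and 178 TPM in LA+RVT, a fall by 0.25 ± 0.032 on the log2 scale (limma adjusted p = 0.00416). PSME2 was at 249, 254 and 263 TPM in LA and at 223, 232 and 217 TPM in LA+RVT, a fall by 0.19 ± 0.035 (limma adjusted p = 0.0147). The PSME2 call was lost without LA library 3 (-0.16, limma adjusted p = 0.0503) and with no trend in the prior (limma adjusted p = 0.0673). Neither fell under PGN: PSME1 was at 166, 174 and 162 TPM and then at 158, 170 and 170 TPM, and PSME2 at 256, 244 and 240 TPM and then at 254, 271 and 268 TPM. Both pairs of PGN groups overlapped. PSME2 shares 216 exonic bases with RNF31 on the opposite strand. Of these 5 inducible genes, 3 fell under LA with all 5 pairs of groups apart, and 1 fell under PGN. Over all tested genes, 5.07% fell under LA and 4.92% under PGN, and 12.8% had lower groups that did not overlap under LA.

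**Figure D3:**
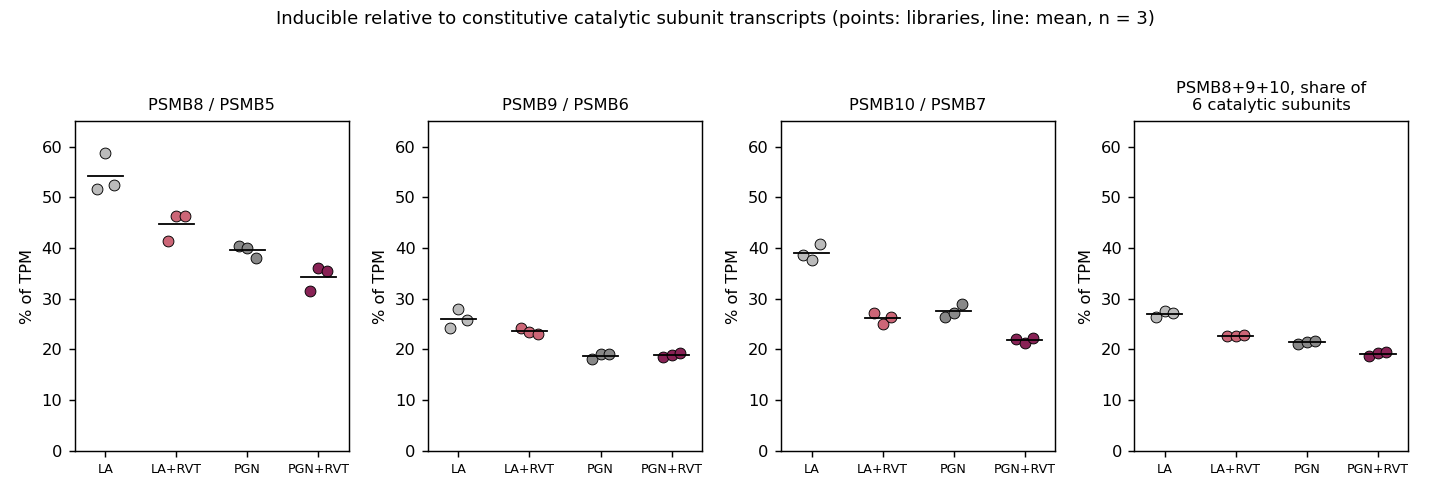
Each inducible catalytic subunit as a percentage of the constitutive subunit it replaces, and PSMB8, PSMB9 and PSMB10 as a share of the 6 catalytic subunits, per library from summed TPM (points) with group means (lines, n = 3). The share is lower with RVT under both stimuli, 22.7% against 27.1% and 19.2% against 21.4%, and PSMB9 relative to PSMB6 has means of 18.9% with RVT and 18.8% without under PGN.

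Set against the subunits they replace, the inducible transcripts had lower means with RVT, other than PSMB9 under PGN. PSMB8, PSMB9 and PSMB10 made up 27.1% ± 0.60 of the TPM of the 6 catalytic subunits in LA and 22.7% ± 0.11 in LA+RVT. The share was 21.4% ± 0.24 in PGN and 19.2% ± 0.42 in PGN+RVT (SD, n = 3, a description with no test). No library with RVT overlapped those without in either arm. PSMB10 went from 39.1% to 26.2% of PSMB7 under LA and from 27.5% to 21.8% under PGN, and PSMB8 from 54.3% to 44.7% of PSMB5 and from 39.5% to 34.3%. PSMB9 went from 25.97% to 23.6% of PSMB6 under LA, with overlapping libraries, and was at 18.8% and 18.9% under PGN. The summed inducible catalytic transcripts were 251 ± 13 TPM in PGN and 249 ± 9.8 TPM in PGN+RVT, and under LA that sum went from 304 ± 8.1 to 247 ± 4.4 TPM.

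Of the remaining activators, PSME3 and PSME4 rose under LA. PSME3 (chr17:42824385-42843758) encodes the nuclear activator PA28 gamma, which works without ubiquitin. It was at 90.3, 92.3 and 91.1 TPM in LA and at 117, 120 and 122 TPM in LA+RVT, a rise of 0.39 ± 0.030 on the log2 scale (limma adjusted p = 0.000697). It did not move by the test under PGN, at 143, 135 and 135 TPM and then 142, 137 and 146 TPM. In LA, PSME1 stood at 230% and PSME2 at 280% of the TPM of PSME3, and in LA+RVT at 148% and 187%. PSME1 was at 122% in PGN and 117% in PGN+RVT, and PSME2 at 179% and 187%. PSME4, the PA200 activator, rose under LA from 30.9, 31.4 and 30.2 TPM to 35.7, 35.0 and 35.1 TPM (0.19 ± 0.041, limma adjusted p = 0.0252), a call lost without any 1 library. PSMF1, an inhibitor of the core, was not called in either arm.

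Of the 7 chaperones that assemble the particles, 1 rose in each arm, a count near the 10.7% and 10.6% of all genes. PSMD5, which holds ATPase subunits during assembly of the 19S base and blocks binding to the core, rose most of all members under PGN. It was at 38.4, 34.5 and 36.4 TPM in PGN and at 56.8, 68.9 and 56.7 TPM in PGN+RVT, a log2 fold change of 0.72 ± 0.087 (limma adjusted p = 0.00284). In LA it was at 39.3, 48.7 and 42.5 TPM. In LA+RVT library 1 stood at 114 TPM against 42.7 and 51.7 TPM in the others. The log2 fold change under LA was 0.53 ± 0.33 and was not called, and without that library it was 0.11. PSMG1, a chaperone of the alpha ring, rose under LA from 39.3, 39.3 and 42.5 TPM to 48.9, 48.2 and 46.3 TPM (0.24 ± 0.048, limma adjusted p = 0.0189), which was lost without LA library 1 or 2 or LA+RVT library 1 or 2. PSMD9, PSMD10, PSMG2, PSMG3 and PSMG4 had log2 fold changes between -0.07 and 0.04 under LA and between -0.03 and 0.23 under PGN.

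The test of the difference between the arms asked whether RVT acted on a member differently under PGN and under LA. It was positive for 9 members and negative for 3, against 7.73% and 7.03% of all genes tested and 11.8% and 11.6% of genes averaging 20 TPM or more. These are 19.1% and 6.38% of the members. The members' median difference was 0.035 on the log2 scale, against 0.026 for all genes. With library medians made equal, 6 were positive and 4 negative, and the positive share of all called genes went from 52.4% to 44.8%. The count of 9 went to 5 without PGN+RVT library 2, and that of 3 went to 5 without PGN library 3.

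Members with a more negative effect under PGN were PSMD14 (-0.39 ± 0.057, limma adjusted p = 0.0011), PSME3 (-0.35 ± 0.052, limma adjusted p = 0.00124) and PSMD12 (-0.25 ± 0.062, limma adjusted p = 0.0194). The PSMD14 and PSME3 calls held in all 21 alternatives. Those with a more positive effect under PGN were 4 of the 5 inducible genes, 4 constitutive beta subunits and PSMD8. PSMB9 had the largest difference (0.43 ± 0.10), followed by PSMB6 (0.29), PSME2 (0.28), PSMB10 (0.28), PSMB4 (0.24), PSME1 (0.23), PSMD8 (0.22), PSMB3 (0.18) and PSMB1 (0.14). For PSMB9, PSMB6, PSME2, PSMB4 and PSMD8 the call held in all 21. PSMB10 fell in both arms, so its positive value marks a smaller fall under PGN, and it was called in 9 of the 21. PSMB8 had a difference of 0.20 ± 0.080 that was not called, PSMB5 one of 0.13 ± 0.046 and PSMB7 one of 0.04 ± 0.046.

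**Figure D4:**
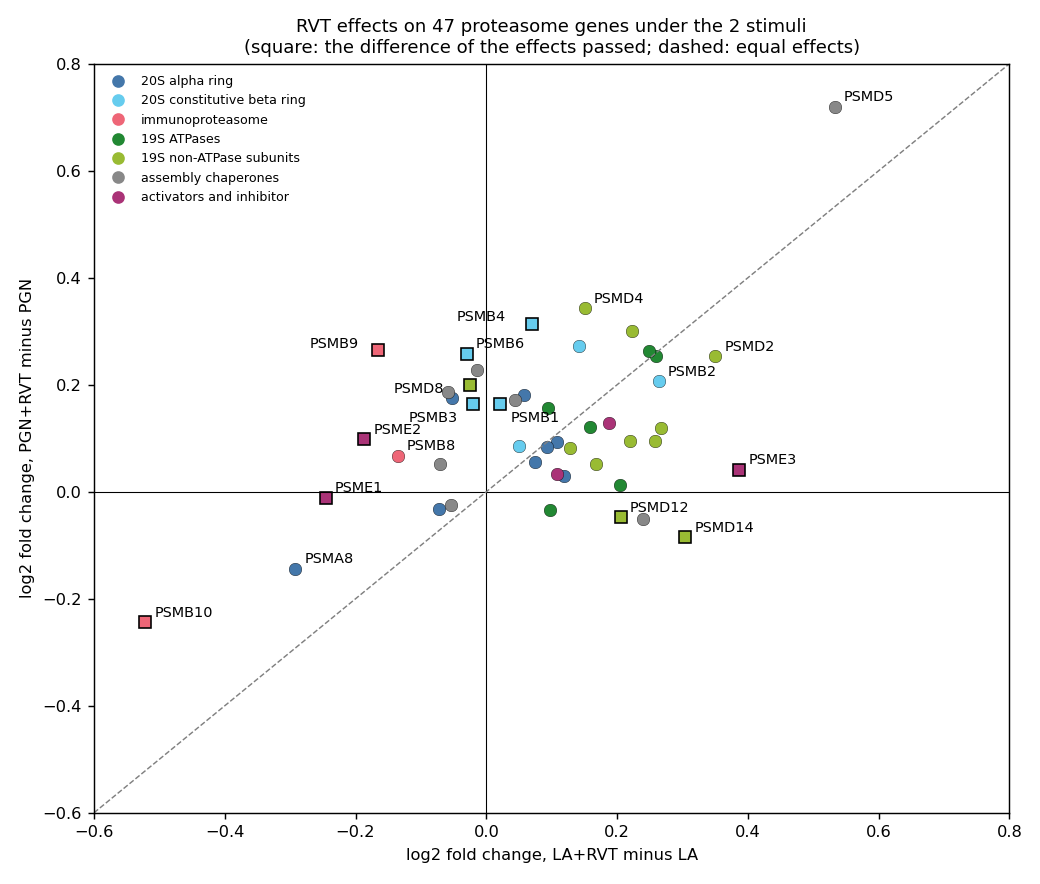
Log2 fold change with RVT under LA (horizontal) and under PGN (vertical) for the 47 tested members, with colours for classes. Squares mark the 12 members whose difference passed the test and the dashed line equal effects. PSMD14, PSME3 and PSMD12 lie below the line, and PSMB9, PSMB6, PSME2 and PSME1 above it.

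Members called in both arms were PSMB2, PSMB4, PSMB5, PSMC3, PSMC4, PSMC5, PSMD2, PSMD3 and PSMD4, all higher, and PSMB10, lower. That is 9 of 47 higher and 1 lower, against 2.25% and 1.20% of the genes tested in both arms. The 9 are among 19 that rose under LA and 15 that rose under PGN. Over the 47 members the log2 fold changes of the arms had a Pearson correlation of 0.448 and a Spearman correlation of 0.172, as a description over genes that share their libraries. PSMD5 had the highest value in both arms (0.53 and 0.72), with LA+RVT libraries at 114, 42.7 and 51.7 TPM. How far the Pearson value depends on it was not tested.

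Among 28 partners and regulators of the proteasome, 11 rose and 1 fell under LA, and 3 rose and 3 fell under PGN, with median log2 fold changes of 0.11 and 0.07. Over all tested genes 10.7% rose and 5.07% fell under LA, and 10.6% rose and 4.92% fell under PGN. The count of 3 higher under PGN is near the share of all genes. HSPA1A, a chaperone of the heat shock response with a near-identical copy (HSPA1B) that makes its value uncertain, went from 107, 109 and 112 TPM to 208, 210 and 215 TPM under LA (0.95 ± 0.030, limma adjusted p = 4.54e-05). Under PGN its values of 111, 122 and 159 TPM and of 133, 136 and 139 TPM overlapped. The ubiquitin gene UBB rose under both stimuli (log2 fold change 0.18 and 0.42). VCP, the segregase upstream of the proteasome, rose by 0.21 and 0.20 on the log2 scale, and UBQLN4, a shuttle that carries ubiquitinated proteins to the proteasome, by 0.28 and 0.27. RAD23B, also a shuttle, differed between the arms (-0.36), with a rise under LA.

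Of the NRF genes, NFE2L1 and NFE2L2 were in the list, and neither passed the test as higher. These are transcript levels, and the activity of the encoded factors was not measured. NFE2L1 had log2 fold changes of -0.06 under LA and 0.12 under PGN (limma adjusted p = 0.455 and 0.325), and POMP, the maturation factor of the core, of 0.10 and 0.17 (limma adjusted p = 0.147 and 0.214). NFE2L2, which encodes NRF2, was at 65.6, 64.2 and 67.3 TPM in LA and 62.7, 58.7 and 55.0 TPM in LA+RVT. Under PGN it fell from 103, 93.6 and 89.8 TPM to 60.9, 55.1 and 62.6 TPM (-0.67 ± 0.072, limma adjusted p = 0.00168). Its partner MAFG fell under PGN (-0.39) and its difference between the arms was -0.94.

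Of 21 genes of MHC class I processing and interferon signalling, none rose and 3 fell under LA, while 5 rose and 3 fell under PGN, with medians of -0.03 and 0.14. Among all tested genes, 10.7% rose and 5.07% fell under LA, and 10.6% rose and 4.92% fell under PGN. Whether the list moved as a set was not tested. IRF1, an interferon-induced factor known to drive inducible proteasome genes, fell in both arms. It was at 125, 120 and 119 TPM in LA and 81.5, 89.5 and 81.8 TPM in LA+RVT (-0.52 ± 0.046, limma adjusted p = 0.00096). In PGN it was at 174, 190 and 181 TPM and in PGN+RVT at 119, 104 and 114 TPM (-0.69 ± 0.061, limma adjusted p = 0.000832). B2M, the light chain of MHC class I, fell under LA (-0.17) and rose under PGN (0.14), with a difference of 0.32 that was called, and TAPBP fell under LA (-0.20). HLA-E rose under PGN from 58.7, 62.5 and 61.3 TPM to 81.9, 85.9 and 83.8 TPM. The interferon gamma receptor genes IFNGR1 and IFNGR2 fell under PGN (-0.91 and -0.63), and their differences between the arms were -0.68 and -0.61. CD74, an immune marker that epithelial cells can express under interferon, went from 14.2, 14.6 and 16.9 TPM in LA to 4.53, 4.12 and 5.11 TPM in LA+RVT. CD68, a lysosomal protein of macrophages, was called higher in both arms (log2 fold change 0.21 and 0.60, limma adjusted p = 0.0309 and 0.000796), and CD14 in neither. The 13 immune markers summed to between 62.9 and 66.9 TPM in LA, 61.0 and 63.0 in LA+RVT, 38.4 and 43.3 in PGN, and 56.1 and 59.1 in PGN+RVT, and their part in the results for the inducible subunits was not tested.

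Promoters of 42 of the 48 members were matched by symbol in the RefSeq table (GRCh38.p14). For each symbol, member or not, only the first listed start was used, and other starts of a gene were not searched. The 250 bases before each start used were searched on both strands for 4 motifs. The core of the interferon-stimulated response element, GAAA, any 2 bases and GAAA again, was in 5 of 42 member promoters (11.9%) and in 3.07% of all 27305 promoters. The exact letters GAAAGCGAAA occur in PSMB10 and PSME2, which fell under LA, and in PSMG4, which was called in neither arm. They are given here because these readings differ, 5′ to 3′ on the strand of the gene, with the match in capitals and up to 10 bases on each side.
PSMB10: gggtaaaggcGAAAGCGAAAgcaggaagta
PSME2: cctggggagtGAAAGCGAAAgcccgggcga
PSMG4: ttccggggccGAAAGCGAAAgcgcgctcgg

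The PSMB10 stretch is chr16:67936852-67936881 on the minus strand, with the match 21 to 12 bases before the start. The PSME2 stretch is chr14:24146619-24146648 on the minus strand, 28 to 19 bases before the start, and that of PSMG4 chr6:3258904-3258933 on the plus strand, 33 to 24 bases before it. All 3 also lie in exons of longer transcripts of the same genes in GENCODE 29. PSMG4 was at 30.1, 30.5 and 31.7 TPM in LA and 32.1, 32.3 and 30.7 TPM in LA+RVT, with overlap. Its PGN groups overlapped too. The part of these letters in the readings was not tested. The PSMB8, PSMB9 and PSME1 windows held no match, and the other 2 were in PSMA4 and PSMB4.

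TGACNNNGC, the core of the antioxidant response element that NRF1 and NRF2 bind, was in 11 of 42 member promoters (26.2%) and in 11.03% of all promoters. By role it was in 2 of 16 matched 19S genes (12.5%), PSMD3 and PSMD12, in 1 of 11 genes of the alpha and constitutive beta rings (9.09%), PSMB3, and in 3 of 5 inducible genes. These 3 constitutive genes are shown because their response to RVT differed: PSMD3 rose in both arms, PSMD12 under LA and PSMB3 under PGN. PSMD5, the largest rise under PGN, is shown with them.
PSMD3: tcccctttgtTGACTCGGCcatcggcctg
PSMD12: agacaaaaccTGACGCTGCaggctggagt
PSMB3: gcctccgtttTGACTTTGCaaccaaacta
PSMD5: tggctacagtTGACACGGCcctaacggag

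These stretches are chr17:39980760-39980788 (plus strand), chr17:67366724-67366752 (minus), chr17:38752627-38752655 (plus) and chr9:120843038-120843066 (minus), with the matches starting 37, 165, 104 and 134 bases before the starts. That of PSMD5 also falls in an exon of the neighbouring CUTALP. TTCNNNGAA, the gamma-activated site, was in 5 of 42 (11.9%) against 6.78%, and in none of the windows of the 5 inducible genes. CCAAT was in 18 of 42 (42.9%) against 33.04%. These shares describe letters in a window and do not show that a factor binds there.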

How the data were processed

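RNA-seq of 12 libraries was analysed, 3 per group, grouped by sample title. The authors deposited a TPM table for each stimulus, its libraries in columns with 2 decimals, per the file headers. The submitters' processing notes name RSEM 1.3.1, HISAT2 2.1.0, DESeq2 1.24.0 and GRCh38.p13 without roles. An annotation release was not given in the sources used here. TPM holds no depth, so no counting interval is given. Genes averaging 1 TPM or more over a fit's libraries entered the tests on log2(TPM + 1), made in R 4.3.3 by limma 3.58.1, with a trended prior, two-sided, Benjamini-Hochberg adjusted, at 0.05. The pseudocount understates changes of low genes. The fits used 6 libraries for an arm and 12, joined by identifier, for the difference between arms. The design text says biological replicates without naming separate cultures, so p-values rest on the spread between libraries, which may be technical. The fits were tested on simulated data. Positions came from GENCODE 29 and promoters from RefSeq. Library values were given for the 3 catalytic pairs, PSME1, PSME2 and up to 10 called members per comparison by adjusted p. Further members were named after their values were seen. Some genes of the other lists are counted but not reported here by name. Members and lists were chosen with earlier results of these data known. Alternatives were other pseudocounts, filters, scalings and priors, a GC and length correction, a replicate block and leaving out each library.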

Additional observations from a re-analysis of the deposited data

Results flagged for a closer look

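For 12 members the effect of RVT differed between the stimuli by the test of the difference itself (limma over 12 libraries, effect under PGN minus effect under LA, log2 scale). Values below 0 were found for PSMD14 (-0.39), PSME3 (-0.35) and PSMD12 (-0.25), which rose under LA and were not called under PGN. Values above 0 were found for PSMB9 (0.43), PSMB6 (0.29), PSME2 (0.28), PSMB10 (0.28), PSMB4 (0.24), PSME1 (0.23), PSMD8 (0.22), PSMB3 (0.18) and PSMB1 (0.14). PSMB6, PSMD8, PSMB3 and PSMB1 rose under PGN and were not called under LA, PSME1 and PSME2 fell under LA and were not called under PGN, PSMB4 rose and PSMB10 fell in both arms, and PSMB9 was called in neither arm alone. The PSMD12 call was lost without PGN+RVT library 1 (-0.23, limma adjusted p = 0.0506) and after correction for GC and length (limma adjusted p = 0.119). That of PSME1 was lost without LA library 1, LA+RVT library 1 or PGN+RVT library 2, after the GC and length correction, with no trend in the prior and with a replicate block. With LA+RVT library 1 left out, PSMD5 also had a called difference (0.61, limma adjusted p = 0.0305).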

How the results depend on the processing

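For the members given with library values by the rule (the 8 fixed ones and those with the smallest adjusted p in each comparison), 686 values under the alternatives kept their side of the threshold and direction, 81 lost their call, 4 gained one and 3 changed sign: PSMB8 under PGN after correction for GC and length (-0.034), and PSME1 under PGN without PGN library 2 (0.018) or PGN+RVT library 1 (0.027). None of these 3 was called. Under LA, 2426 genes were called, 1610 with no filter on low values and 1428 to 1690 without 1 library. Members higher there went from 19 to 12 with library medians made equal, with TPM rescaled or after correction for GC and length, to 11 with no trend in the prior, and to between 9 and 13 without 1 library. Under PGN, 2277 genes were called, 1384 with no filter and 1095 to 1861 without 1 library. Members higher went from 15 to 5 with medians made equal or no trend in the prior and to between 6 and 13 without 1 library. The 1 lower member, PSMB10, went to 0 with no filter, with no trend in the prior and in 5 of 6 fits without a library. In the difference, members higher went from 9 to 5 with no trend in the prior and lay between 5 and 10 without 1 library, the lowest without PGN+RVT library 2, and members lower from 3 to between 2 and 5, the highest without PGN library 3. The cause was not tested. The shared replicate numbers were not taken to pair the samples in the main fits. Same-numbered deviations correlated at -0.070, -0.0068 and -0.029 under LA and at 0.032, 0.041 and 0.0081 under PGN. Every sample was closest to its own number under PGN but not under LA, so these values do not settle whether samples were paired. With a replicate block, 1502 genes and 11 higher members were called under LA, and 11 members higher and 0 lower under PGN. TPM gives no depth, so precision rests on 3 libraries per group, and a fit without 1 library compares 2 with 3.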
